A study of Homo sapiens with 12 samples.

Results

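Transcripts of the mitochondrial genome were measured in 12 RNA libraries of 1 human podocyte line treated with calcineurin inhibitors. The members were all genes whose Ensembl identifier has a symbol that starts with MT-, which gave 37 of the 62262 genes in the table. They comprise 13 genes for protein subunits, 2 rRNA genes and 22 tRNA genes. Counts were present for 15 of the 37, which are the 13 protein genes and the 2 rRNA genes, and all 15 passed the filter on low counts. All 22 tRNA genes were listed at 0 in every library. Their annotated lengths are 59 to 75 bp.

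The cells carry a temperature-sensitive SV40 T gene, grow while it is active and were differentiated at the temperature that inactivates it. The 4 groups were cyclosporine A (CSA), tacrolimus (TAC), voclosporin (VCS) and the DMSO control, each inhibitor at 100 nM for 24 h, with 3 libraries a group numbered 1 to 3. All the groups share this line, its transgene and poly(A) selection of the RNA. The sources used here do not say what a replicate was, so p-values measure the spread between these libraries, which may be technical. CSA and VCS are close structural analogs that bind cyclophilin, and TAC is a macrolide that binds FKBP12. All of these drugs block calcineurin, a calcium-dependent phosphatase.

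Library totals ran from 28808213 to 36077072 counts. Of the podocyte genes, NPHS1, a slit diaphragm protein, had 1 to 11 counts and WT1 20 to 50 counts a library. ACTN4 had 1331 to 1602 CPM (counts scaled to the library total), SYNPO 43.5 to 64.3 CPM and PODXL 17.8 to 32.3 CPM. PAX8 and CLDN1, known from parietal and tubular kidney cells, had 250 to 482 CPM and 358 to 503 CPM. They belong to a list of 15 markers of other kidney cells, which summed to 744 to 1011 CPM a library. A list of 15 podocyte markers summed to 5480 to 6124 CPM. NPHS1, which defines podocytes, was thus near 0.

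The circular mitochondrial genome is transcribed from both strands into long precursors. The tRNAs that lie between most of its genes are cut out, which frees the rRNAs and mRNAs, and most of these then receive short poly(A) tails. The rRNAs build the mitochondrial ribosome, and the mRNAs encode core subunits of respiratory complexes I, III and IV and of the ATP synthase, complex V. Podocytes and other kidney epithelial cells rely on this system for part of their ATP.

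The sequences show 3 features of these genes, of which the overlaps and the strand of MT-ND6 can bear on how reads are counted. The first pair of lines shows where neighbouring genes share bases, which are in capitals with 20 bases on each side. MT-ATP8 and MT-ATP6 lie on 1 mRNA and overlap by 46 bases, and MT-ND4L and MT-ND4 lie on another and overlap by 7 bases. The coordinates are on GRCh38 with GENCODE 29, strand plus, at chrM:8507-8592 and chrM:10740-10786.
MT-ATP8 and MT-ATP6: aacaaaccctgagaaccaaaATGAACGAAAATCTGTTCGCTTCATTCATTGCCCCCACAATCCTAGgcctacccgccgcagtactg
MT-ND4L and MT-ND4: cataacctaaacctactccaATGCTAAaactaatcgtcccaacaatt

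The next lines show the last 30 bases of 4 protein genes, with what the gene encodes of its stop codon in capitals. In 6 of 13 protein genes the stop codon is incomplete, ending in T in 5 and in TA in 1, and the poly(A) tail completes it. MT-CO1 and MT-ND6 end in AGA and AGG. MT-ND6 is the only protein gene read from the other strand, and its sense sequence is G-rich, with 35.6% G against 6.28% to 16.2% G in the other 12 protein genes. The sites are chrM:4233-4262, chrM:15858-15887 and chrM:7416-7445 on the plus strand and chrM:14149-14178 on the minus strand.
MT-ND1: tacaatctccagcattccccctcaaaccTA
MT-CYB: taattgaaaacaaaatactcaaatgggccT
MT-CO1: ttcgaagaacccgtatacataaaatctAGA
MT-ND6: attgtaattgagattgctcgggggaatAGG

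Members differed widely in level in this poly(A)-selected RNA. MT-CO1, the catalytic subunit of complex IV, was the highest per length in each of the 12 libraries, with a mean of 16053 ± 4632 CPM per kb (SD over 12 libraries). The large rRNA MT-RNR2 ranked 2 in each library at 10567 ± 3649 CPM per kb, and MT-ATP6 of complex V ranked 3 in each at 6889 ± 2220 CPM per kb. The other complex IV subunits, MT-CO3 and MT-CO2, averaged 5818 ± 1767 and 5043 ± 1370 CPM per kb. They changed places with each other or with MT-ND4 between libraries.

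The complex I subunits were lower. MT-ND4 averaged 4567 ± 1311 CPM per kb, MT-ND6 3304 ± 1080, MT-ND2 3020 ± 842, MT-ND1 3017 ± 736, MT-ND5 2657 ± 714 and MT-ND3 2242 ± 778 CPM per kb. MT-CYB, the only member of complex III, averaged 4274 ± 1328 CPM per kb. The small rRNA MT-RNR1 averaged 2197 ± 519 CPM per kb, so it was below its partner MT-RNR2 although both come from the same precursor.

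MT-ND4L was the lowest in each library, at 1220 ± 271 CPM per kb, and MT-ATP8 averaged 1776 ± 555 CPM per kb. Each shares its mRNA with a much higher neighbour. MT-ATP6 had 3.50 to 4.43 times the CPM per kb of MT-ATP8, and MT-ND4 had 2.61 to 4.99 times that of MT-ND4L. The sources used here do not say how reads were split between these overlapping genes. MT-ND4L and MT-ATP8 are also the shortest counted genes, at 297 and 207 bp, and CPM per kb used the full annotated length. The part of gene length in these levels was not tested. Neighbours in the order from MT-ND6 to MT-RNR1 changed ranks between libraries, so their order lies within the spread.

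**Figure D1:**
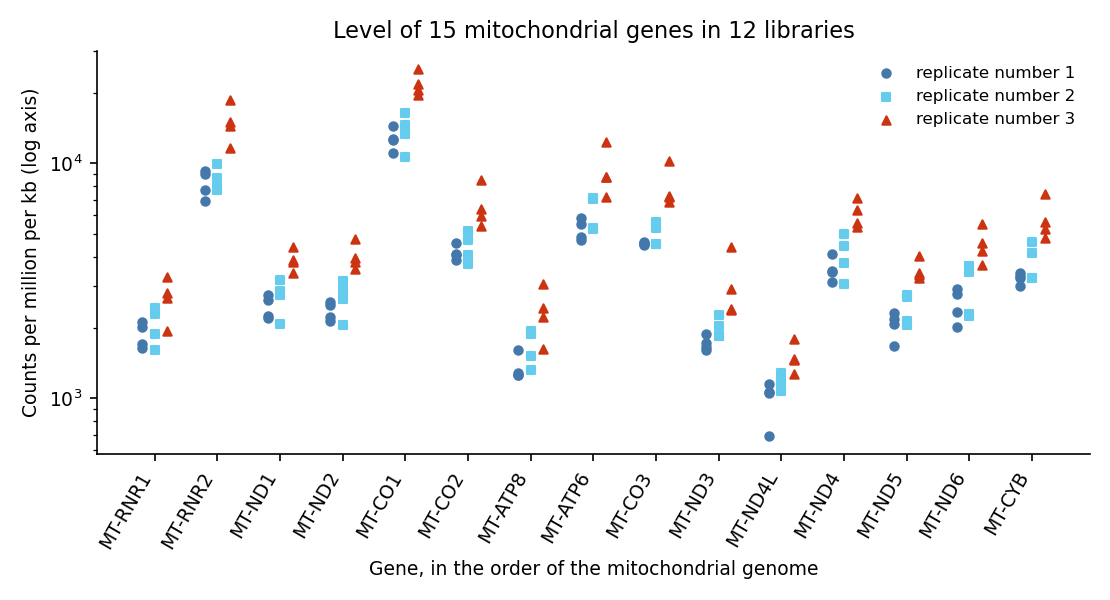
Level of each of the 15 counted mitochondrial genes, in CPM per kb on a log axis, in the order of the genome; each point is 1 of 12 libraries, marked by replicate number. MT-CO1 is highest and MT-ND4L lowest, and the triangles of the libraries numbered 3 lie above most other points of every gene.

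Near-identical copies of mitochondrial sequence in the nuclear genome could take reads from the members. Of 404 annotated copies, 122 had counts, and together they held 0.275% to 0.389% as many counts as the members. MTATP6P1, which differs from MT-ATP6 at 10 of 681 aligned bases, had 4.05% to 4.86% of the MT-ATP6 count. The copies of MT-CO1, MT-ND2, MT-ND4, MT-ND1 and MT-ND5 with the highest counts (MTCO1P12, MTND2P28, MTND4P12, MTND1P23 and MTND5P11) each had under 1% of the count of their member. How many reads were assigned to the wrong copy was not tested.

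Whether the inhibitors moved the total of mitochondrial RNA was asked first. The members held 5.82%, 7.48% and 9.68% of all counts in the CSA libraries numbered 1, 2 and 3. They held 6.41%, 6.61% and 10.1% in the TAC libraries and 6.18%, 5.90% and 13.4% in the VCS libraries. In the DMSO libraries they held 7.10%, 8.12% and 10.8%. The group means were 7.66% ± 1.93 for CSA, 7.70% ± 2.06 for TAC, 8.48% ± 4.24 for VCS and 8.67% ± 1.92 for DMSO (SD, n = 3 each), and all groups overlapped.

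The 4 groups did not differ in the ratio of mitochondrial to other counts beyond the spread between libraries (two-sided exact permutation test over groups, p = 0.941). On the log2 scale this ratio differed by −0.20 (95% interval −1.13 to 0.72) between CSA and DMSO, by −0.20 (−1.12 to 0.73) between TAC and DMSO and by −0.12 (−1.05 to 0.80) between VCS and DMSO. The intervals use the spread pooled over the groups, with replicate number left out. Compared within numbers, CSA and TAC lay below DMSO in each of the 3 and VCS in numbers 1 and 2. Between inhibitors the log2 ratio differed by −0.01 (−0.93 to 0.92) for CSA minus TAC, by 0.08 (−0.84 to 1.01) for VCS minus CSA and by 0.08 (−0.85 to 1.00) for VCS minus TAC. In bulk RNA, fewer cells of a kind and less RNA in each cell cannot be told apart.

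The share followed the replicate number instead. The 4 libraries numbered 3 held 9.68% to 13.4% mitochondrial counts (SD 1.66, n = 4), against 5.82% to 8.12% in the 8 libraries numbered 1 and 2 (SD 0.807, n = 8). These ranges do not overlap. The share of library 3 was 1.46 times the mean of libraries 1 and 2 in CSA, 1.55 times in TAC, 2.22 times in VCS and 1.42 times in DMSO. With numbers permuted within groups, the exact two-sided p was 0.0139, where the smallest possible value is 0.00463, and 0.0417 after adjustment over the 3 measures tested in this way. The labels do not say what a number stands for.

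**Figure D2:**
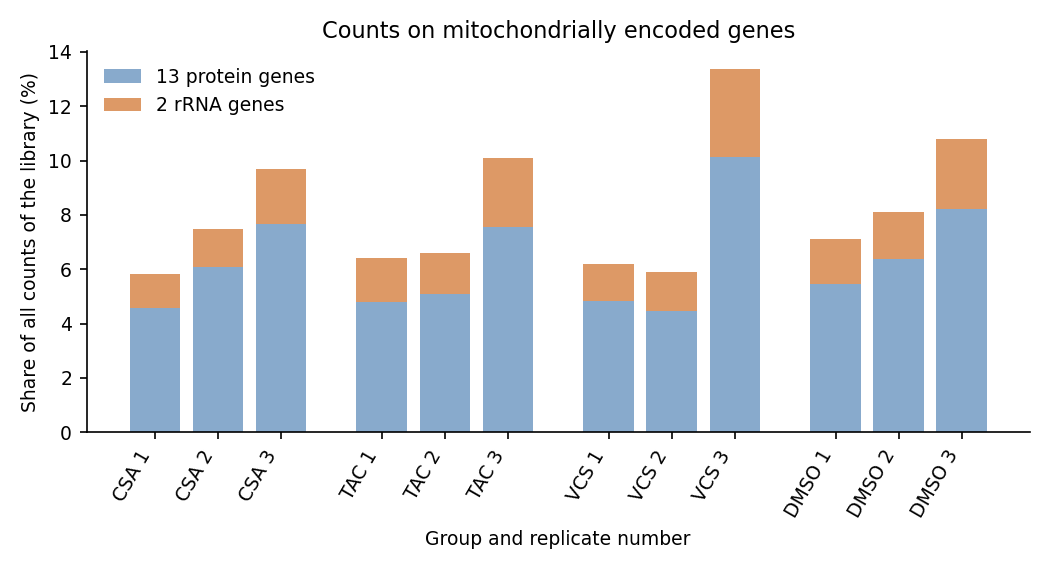
Share of all counts of a library, in percent, that fell on the 13 protein genes and the 2 rRNA genes of the mitochondrial genome, for each group and replicate number; bars are single libraries. Library 3 is the tallest in each group, from 9.68% in CSA to 13.4% in VCS.

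The rise in the libraries numbered 3 took in every counted member. MT-CO1 had 17162, 22275 and 31430 CPM in the CSA libraries 1, 2 and 3, 19548, 20224 and 31204 CPM in TAC, 19670, 16639 and 40031 CPM in VCS, and 22299, 24266 and 32958 CPM in DMSO. MT-RNR2 had 10864, 12213 and 19001 CPM in CSA, 14137, 13268 and 22137 CPM in TAC, 12084, 12110 and 30016 CPM in VCS, and 14433, 14850 and 23084 CPM in DMSO. Library 3 was the highest of its group for both genes in all 4 groups, while the order of libraries 1 and 2 differed between groups.

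In a fit with group and replicate number as terms, 15 of 15 members passed edgeR's quasi-likelihood test for replicate number at an adjusted p under 0.05, where 23.6% of the 19784 tested genes passed. In the libraries numbered 3 against the mean of numbers 1 and 2, 15 of 15 were called higher, where 13.6% of all genes were. Their median log2 fold change was 0.70, against 0.0027 over all genes. Which number is highest was known from earlier results when this contrast was set. The members come from the same precursors, so the 15 calls are not independent. Library 3 was the highest of its group in all 4 groups for 15 of 15 members and for 12.5% of all genes. Libraries numbered 2 and 1 did not separate in this way, with 0 of 15 called by edgeR, where 0.687% of all genes were, and the members' log2 fold change of number 2 over number 1 had a median of 0.16 (range 0.03 to 0.26).

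The estimated rise ran from a log2 fold change of 0.85 for MT-RNR2 (SE 0.10, edgeR adjusted p = 0.000372) to 0.46 for MT-RNR1 (SE 0.09, edgeR adjusted p = 0.00381). Of complex I, MT-ND6 rose by 0.78, MT-ND4 by 0.72, MT-ND2 and MT-ND3 by 0.70, MT-ND5 by 0.68, MT-ND1 by 0.62 and MT-ND4L by 0.50. Of complex IV, MT-CO1 rose by 0.75, MT-CO3 by 0.73 and MT-CO2 by 0.63. MT-CYB of complex III rose by 0.73, and MT-ATP6 and MT-ATP8 of complex V by 0.72 and 0.65. The SEs of all the members lay between 0.09 and 0.12, so neighbours in this order lie within their error, and differences between members were not tested.

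The rRNA pair held the highest and the lowest estimate, although MT-ND6 and MT-ND4L lay within an SE of them. MT-RNR1 had 14.4, 12.4 and 10.2 counts per 100 MT-RNR2 counts in CSA, 13.7, 13.3 and 11.9 in TAC, 13.6, 19.4 and 10.8 in VCS, and 13.9, 14.1 and 10.9 in DMSO. The libraries numbered 3 averaged 10.9 ± 0.718 (SD, n = 4), against 14.3 ± 2.11 in those numbered 1 and 2 (SD, n = 8). Library 3 had the lowest value in each group, and VCS library 2 stood above all others. This ratio was chosen after its values were seen and has no test.

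Of 71 tested nuclear-encoded subunits of the same complexes, edgeR called 1 higher and 12 lower in the libraries numbered 3, with a median log2 fold change of −0.04. The higher one was NDUFV3 of complex I, by 0.28 (edgeR adjusted p = 0.00411). ATP5F1B and ATP5F1A, the catalytic-domain subunits of ATP synthase, fell by 0.45 and 0.31 on the log2 scale (edgeR adjusted p = 0.000905 and 0.00253). UQCRFS1, the Rieske protein of complex III, fell by 0.43 (edgeR adjusted p = 0.00209) and NDUFS1 of complex I by 0.27 (edgeR adjusted p = 0.00358). Over all genes, 13.6% were called higher and 12.9% lower. The 13 calls became 23 without CSA library 3, 8 without VCS library 3 and 7 without DMSO library 3.

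Of 51 nuclear genes for transcription, processing and replication of the mitochondrial genome, 5 were called higher and 14 lower, with a median log2 fold change of −0.07. The shares over all genes were 13.6% higher and 12.9% lower. FASTKD1, of a family of mitochondrial RNA-binding proteins, rose by 0.37 (edgeR adjusted p = 0.00216). The other 4 called higher were MTERF2 by 0.42, POLG2, the accessory subunit of the mitochondrial DNA polymerase, by 0.31, MTERF3 by 0.29 and MGME1, a mitochondrial exonuclease, by 0.16, named after their values were seen. POLDIP2, which works with the polymerase PrimPol, fell by 0.30, LIG3, the DNA ligase of mitochondria, by 0.32, and GRSF1, of the mitochondrial RNA granules, by 0.29 (edgeR adjusted p = 0.00214, 0.00383 and 0.00439). The 19 calls of this list became 10 without VCS library 3 and 12 without DMSO library 3. Of 13 regulators of mitochondrial biogenesis, 0 were called higher and 2 lower by edgeR, with 3 of 13 at an unadjusted p under 0.05, where 39.1% of all genes were. The lower ones were GABPB1, a subunit of nuclear respiratory factor 2, and PPRC1, a coactivator of the PGC-1 family, which fell by 0.32 and 0.23. The 2 calls became 5 without CSA library 3.

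Of 20 tested genes of the mitochondrial stress response, 2 were called higher and 9 lower, where 13.6% and 12.9% of all genes were. GDF15, a secreted stress cytokine, rose by 0.54 (edgeR adjusted p = 0.000286), and SPG7, an inner membrane protease, by 0.28 (edgeR adjusted p = 0.00242). HSPA9, the mitochondrial HSP70, and YME1L1, another inner membrane protease, fell by 0.23 and 0.27 (edgeR adjusted p = 0.00468 and 0.0075). The 11 calls became 5 without VCS library 3 or without DMSO library 3, 6 without DMSO library 1, and 7 without VCS library 2 or DMSO library 2.

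Of 7 noncoding RNAs in the list of nuclear-retained RNAs, edgeR called 4 higher and 1 lower in the same libraries. Of all genes it called 13.6% higher and 12.9% lower. In the libraries numbered 3, MALAT1 rose by 0.55, NEAT1 by 0.54, MEG3 by 0.49 and KCNQ1OT1 by 0.47 on the log2 scale (edgeR adjusted p = 0.00146, 0.00153, 0.00103 and 0.00344). NORAD, which is in the list but known mainly from the cytoplasm, was called lower by 0.29 (edgeR adjusted p = 0.0478). The summed level of the 7 RNAs was 4343 to 5292 CPM in the libraries numbered 3, against 3222 to 4497 CPM in those numbered 1 and 2. The part of RNA handling, culture or cell state in the higher mitochondrial share was not tested.

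Cell type markers were checked in the same fit. The summed level of 15 podocyte markers was 5551 to 5906 CPM in the libraries numbered 3, against 5480 to 6124 CPM in the others. Of these, CD2AP was called lower by 0.33 (edgeR adjusted p = 0.00487) and PLA2R1 higher by 0.23 (edgeR adjusted p = 0.0386). That of 15 markers of other kidney cells was 774 to 1011 CPM, against 744 to 999.5 CPM, and PAX2 was called higher by 0.24. The 10 airway and keratinocyte markers summed to 16.2 to 32.0 CPM against 21.4 to 58.0 CPM, and KRT5 and SFTPA2 were called lower. Among tested genes, edgeR called 2 of 11 podocyte markers, 1 of 12 of other kidney cells and 2 of 9 of this list. Over all genes, 26.5% were called. With 1 library left out or another tool, each of these marker lists had between 0 and 5 genes called. Their part in the mitochondrial share was not tested.

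No member passed the test for any inhibitor. At an adjusted p under 0.05, edgeR called 0 of 15 members in CSA, TAC or VCS against DMSO, where it called 0.0101%, 0.0354% and 0.00505% of all genes. Between inhibitors it called 0 of 15 in CSA against TAC, VCS against CSA and VCS against TAC, where it called 0.0303%, 0.0101% and 0.0253% of all genes. DESeq2 called 0 of 15 in all 6 comparisons as well, and edgeR's test for any difference among the 4 groups called 0 of 15, where it called 0.0505% of all genes. At an unadjusted p under 0.05, edgeR in the fit by group had 1 member in 1 of the 6 comparisons, MT-RNR1 in VCS over CSA, where 2.54% of all genes passed, with a log2 fold change of 0.53 (SE 0.22, edgeR adjusted p = 1).

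Against DMSO, the members' log2 fold changes had a median of −0.13 in CSA, with 10 of 15 below 0 (51.0% of all genes), and the median over all genes was between −0.0044 and 0.0041 in each comparison. They ran from −0.40 for MT-RNR1 (SE 0.22, edgeR adjusted p = 0.939) to 0.18 for MT-CO2 (SE 0.27, edgeR adjusted p = 0.948). In TAC the median was −0.16 and 15 of 15 were below 0 (50.9% of all genes), from −0.49 for MT-ATP8 (SE 0.30, edgeR adjusted p = 0.92) and −0.44 for MT-ND6 (SE 0.34, edgeR adjusted p = 0.92) to −0.06 for MT-RNR1. In VCS the median was 0.05 and 5 of 15 were below 0 (49.1% of all genes), from −0.16 for MT-ND4 to 0.24 for MT-CO2. The 3 comparisons share the DMSO libraries, and all members come from the same precursors, so their directions are not independent.

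The VCS values depended on VCS library 3. Without it, which leaves VCS libraries 1 and 2 against groups that keep their library 3, the members' median log2 fold change was −0.47 for VCS over DMSO and −0.38 for VCS over CSA, with 15 of 15 and 14 of 15 below 0. Without all 4 libraries numbered 3, the medians were −0.28 and −0.15, with 15 of 15 and 12 of 15 below 0. With library totals in place of TMM scaling, the VCS over DMSO median was −0.0046. None of these fits called a member.

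**Figure D3:**
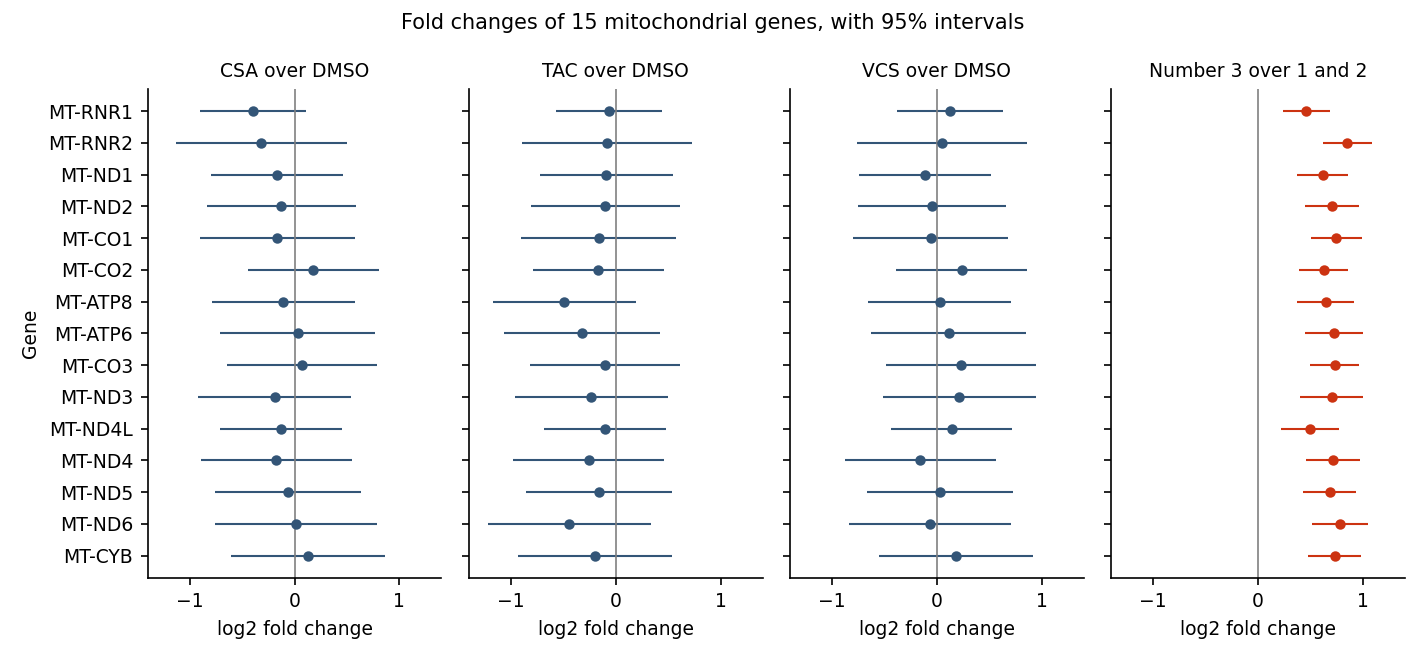
Log2 fold changes of the 15 counted members from edgeR, with 95% intervals, for CSA, TAC and VCS over DMSO (3 libraries each) and for the 4 libraries numbered 3 over the 8 numbered 1 and 2. The inhibitor intervals come from the fit by group, which leaves replicate number out, and all include 0. Those for number 3 come from the fit with group and replicate number as terms, which leaves a smaller residual spread, and all lie above 0. The intervals use the residual degrees of freedom alone, fewer than edgeR's p-values use.

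Ratios between members are free of the total share, and these did differ between groups. The RNA was poly(A)-selected, so the ratios count RNA that the selection kept. The part of poly(A) tail length in them was not tested. The rRNA counts per 100 mRNA counts of the mitochondrial genome were 27.0, 22.8 and 26.1 in CSA, 33.2, 30.1 and 33.2 in TAC, and 28.3, 32.0 and 31.8 in VCS. They were 30.2, 27.7 and 31.6 in DMSO. CSA lay below all other groups, without overlap, while TAC, VCS and DMSO overlapped. The 4 groups differed (two-sided exact permutation test, p = 0.0125; 0.0187 adjusted over the 3 measures).

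This rRNA result rested on few libraries. Without CSA library 2, which had the lowest ratio, the exact p was 0.0664, and without the 4 libraries numbered 3 it was 0.143. In pairs, the log2 ratio of CSA differed from DMSO by −0.24 (95% interval −0.43 to −0.04), CSA minus TAC was −0.35 (−0.54 to −0.15) and VCS minus CSA was 0.28 (0.09 to 0.47). TAC minus DMSO was 0.11 (−0.08 to 0.30), VCS minus DMSO 0.04 (−0.15 to 0.24) and VCS minus TAC −0.07 (−0.26 to 0.13). An exact test of 3 against 3 cannot go below p = 0.1, so no pair can pass alone. The pairs with CSA reached that value, which was 0.2 after adjustment over the 6 pairs. By replicate number the ratio did not differ beyond the spread (exact permutation p = 0.213; 0.319 adjusted over 3 measures).

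MT-ND6, the complex I subunit from the other strand, was set against the summed counts of the other 12 protein genes. It had 3.28, 3.26 and 2.98 counts per 100 of theirs in CSA, 2.25, 2.40 and 2.63 in TAC, and 2.60, 2.70 and 2.93 in VCS. In DMSO it had 2.88, 2.94 and 3.00, the narrowest spread of the groups. TAC lay below CSA and below DMSO without overlap, and the 4 groups differed (two-sided exact permutation test, p = 0.0011; 0.00331 adjusted over the 3 measures).

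The difference in MT-ND6 remained past the threshold with each library left out in turn (exact permutation p from 0.000584 to 0.00636) and without the libraries numbered 3 (0.00952). The log2 ratio of TAC minus DMSO was −0.28 (95% interval −0.43 to −0.13), which is 0.824 times the DMSO ratio. CSA minus TAC was 0.39 (0.23 to 0.54), VCS minus CSA was −0.21 (−0.36 to −0.06), without overlap of the groups, and VCS minus TAC was 0.18 (0.02 to 0.33), with overlap. CSA minus DMSO was 0.11 (−0.05 to 0.26) and VCS minus DMSO was −0.10 (−0.26 to 0.05), so these were not separated from the control. Each pair has the same limit of an exact p of 0.1, and the value adjusted over 6 pairs was 0.2 for each. The airway marker list summed to 16.2 to 24.8 CPM in CSA, 21.4 to 25.9 in TAC, 32.0 to 58.0 in VCS and 25.2 to 45.0 in DMSO. Of its 9 tested genes edgeR called 1 in these comparisons, SFTPA1, a surfactant protein. Its log2 fold change was −4.19 in CSA and −4.41 in TAC over DMSO (edgeR adjusted p = 0.0258 and 0.0143). It was 4.04 in VCS over CSA and 4.26 in VCS over TAC (edgeR adjusted p = 0.0217 and 0.00926). Of all genes, 0.0101%, 0.0354%, 0.0101% and 0.0253% were called there. Of the 9 genes, 2 lay above 0 in CSA and 3 in TAC over DMSO. Below 0 lay 1 of 9 in VCS over CSA and 2 in VCS over TAC. The part of these markers in the ratios was not tested. Use of read strand in the counting is not stated, so sense MT-ND6 RNA and RNA from the opposite strand of the same locus cannot be told apart. As for the rRNA ratio, the part of poly(A) selection was not tested.

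By replicate number the MT-ND6 ratio did not differ beyond the spread (exact permutation p = 0.389). The numbers 3 averaged 2.89 ± 0.173 (SD, n = 4), against 2.79 ± 0.372 for numbers 1 and 2 (SD, n = 8). Within numbers, TAC had the lowest MT-ND6 ratio in each of the 3, and CSA the highest in numbers 1 and 2.

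**Figure D4:**
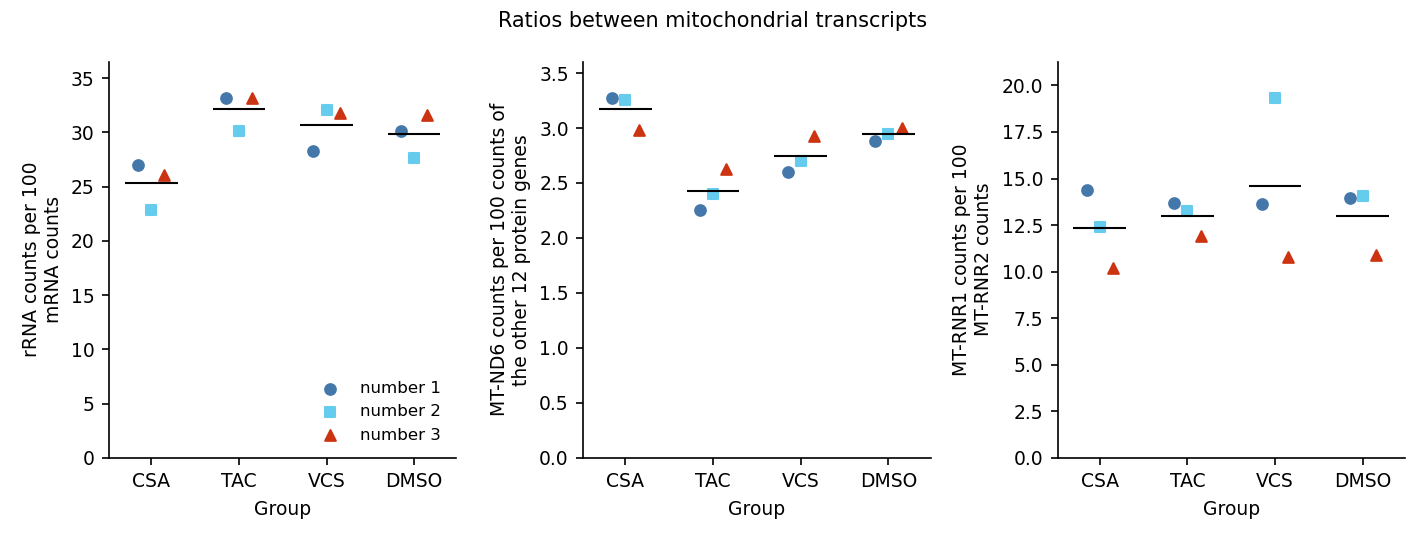
Ratios between mitochondrial transcripts in each library, by group and replicate number, with lines at the group means (n = 3): rRNA per 100 mRNA counts, MT-ND6 per 100 counts of the other 12 protein genes, and MT-RNR1 per 100 MT-RNR2 counts. CSA has the lowest rRNA ratio, TAC the lowest MT-ND6 ratio, and the libraries numbered 3 the lowest MT-RNR1 ratio of each group.

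In the make-up of the mRNA pool, the CSA and VCS libraries did not overlap those of TAC and DMSO at 2 of 13 protein genes. At the other 11 they overlapped. Only this split of the groups was counted, after the values were seen, and no share over all genes was computed. The count is thus a description. MT-CO2, the subunit of complex IV that takes electrons from cytochrome c, made up 6.83%, 5.82% and 5.67% of the counts on the 13 protein genes in CSA and 5.87%, 6.23% and 5.72% in VCS. It made up 5.49%, 5.04% and 4.88% in TAC and 5.10%, 5.06% and 4.95% in DMSO. The lowest CSA or VCS library thus lay above the highest TAC or DMSO library.

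MT-CYB, cytochrome b of complex III, made up 8.11%, 8.69% and 8.35% in CSA and 7.85%, 8.30% and 8.33% in VCS, against 7.11%, 7.26% and 7.23% in TAC and 7.14%, 7.43% and 7.28% in DMSO. Its group means were 8.38% ± 0.293 in CSA, 8.16% ± 0.266 in VCS, 7.20% ± 0.0816 in TAC and 7.28% ± 0.145 in DMSO (SD, n = 3 each). MT-CO3 of complex IV averaged 7.47% ± 0.287 in CSA and 7.82% ± 0.224 in VCS, against 7.12% ± 0.142 in TAC and 6.69% ± 0.196 in DMSO, and CSA overlapped TAC. This grouping was seen in the values and has no test. In the fit of levels, none of these genes was called in any of the 6 comparisons.

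**Figure D5:**
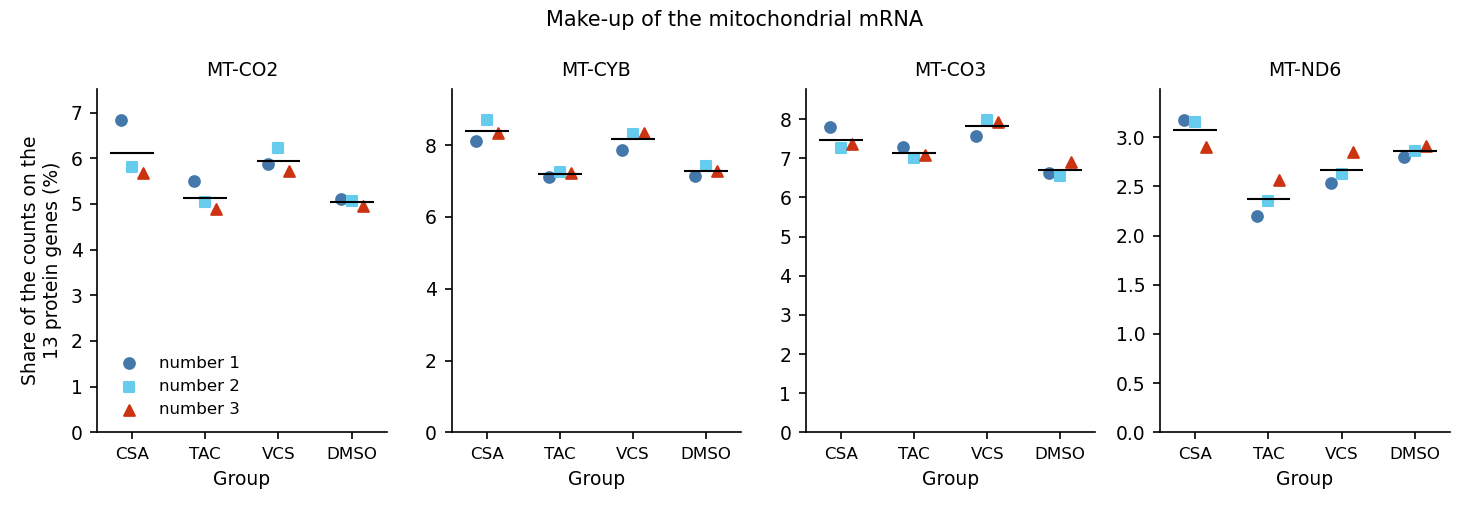
Share of the counts on the 13 mitochondrial protein genes, in percent, held by MT-CO2, MT-CYB, MT-CO3 and MT-ND6 in each library, by group and replicate number, with lines at the group means (n = 3). MT-CO2 and MT-CYB are higher in all CSA and VCS libraries than in any TAC or DMSO library.

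Nuclear partners of the members were tested in the same fits. Of the 51 genes for mitochondrial genome expression, the 71 nuclear respiratory subunits and the 7 listed noncoding RNAs, edgeR called 0 in each of the 6 comparisons in the fit by group. The smallest p for the first list was that of POLRMT, the mitochondrial RNA polymerase, in CSA over TAC (log2 fold change 0.25, SE 0.07, unadjusted p = 0.00368, edgeR adjusted p = 0.494). MTERF1, a mitochondrial termination factor, had a log2 fold change of −0.40 in CSA over DMSO (SE 0.12, unadjusted p = 0.0071, edgeR adjusted p = 0.939). Of the nuclear subunits, COX7B of complex IV had the smallest p, in VCS over CSA (log2 fold change 0.42, SE 0.12, unadjusted p = 0.0047, edgeR adjusted p = 1). Of the listed noncoding RNAs it was OIP5-AS1, in CSA over TAC (log2 fold change −0.20, SE 0.09, unadjusted p = 0.0551, edgeR adjusted p = 0.673).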

How the data were processed

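The labels describe poly(A) selection, UMIs and ERCC spike-ins. Salmon and GRCh38 were used per the submitters' processing notes, which give no version. The authors deposited 1 table of whole numbers, read here to be expected counts rounded before deposit. Use of UMIs or strand and the annotation release are not given in the sources used here, so counts may hold PCR duplicates.

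Symbols were found for 62252 of 62262 identifiers, and positions and sequences came from GENCODE 29 transcripts. edgeR 4.0.16 in R 4.3.3 kept 19784 genes (filterByExpr, minimum count 10), scaled by TMM and fitted its quasi-likelihood test to all 12 libraries, by group (8 residual degrees of freedom), or by group and replicate number (6). P-values were adjusted by Benjamini-Hochberg over all tested genes. Intervals of the members' fold changes used the residual degrees of freedom alone, so they are wider than intervals that match edgeR's p-values. CPM per kb used library totals and full annotated gene lengths, and other CPM of members were TMM-scaled. Ratios were tested on the log2 scale by exact two-sided permutation of the F statistic. Scripts were tested on simulated data. DESeq2 1.42.0, other scalings and left-out libraries were alternatives.

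The members, lists and tests were chosen with earlier results of these data known. The rule named all 15 counted members, the 6 nuclear copies with the highest counts, and in each list up to 4 called genes by p or otherwise the 2 with the smallest p; values are printed for those a result turns on.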

Additional observations from a re-analysis of the deposited data

How the results depend on the processing

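The result of 0 members called between groups held in every alternative: other scalings, no filter, DESeq2, fits of 2 groups, left-out libraries and the replicate block (smallest adjusted p 0.148). Members called by replicate number stayed at 15 except without VCS replicate 3 (range 14 to 15), where MT-ND4L was lost (adjusted p = 0.0663). Over all genes, the calls ran from 2341 of 20288 without VCS replicate 3 to 6801 of 20344 without CSA replicate 3. Under 18 alternatives the log2 rise of members in number 3 stayed between 0.38 and 0.92. The exact permutation p of the rRNA ratio between groups was 0.143 without the libraries numbered 3, and 0.00942 to 0.0664 with 1 library left out.

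Same-numbered libraries of different groups correlated by 0.0069 to 0.532 in their deviations from group means (18 pairs; 0.185 to 0.532 for number 3), and libraries of different numbers by −0.427 to 0.263 (36 pairs). Not every same-numbered pair was over 0.1, the limit set for pairing, so the block is given here alone. With the replicate block the permutation p was 0.649 for the share, 0.0313 for the rRNA ratio and 0.00347 for the MT-ND6 ratio. The log2 ratio of mitochondrial to other counts against DMSO then had 95% intervals of −0.63 to 0.22 in CSA, −0.62 to 0.23 in TAC and −0.55 to 0.31 in VCS, and the members' median in VCS over DMSO was −0.02. Of the members' intervals against DMSO, 4 excluded 0, those of MT-RNR1 (−0.70 to −0.10) and MT-RNR2 (−0.64 to −0.01) in CSA and of MT-ND6 (−0.84 to −0.10) and MT-ATP8 (−0.84 to −0.10) in TAC. At an unadjusted p under 0.05 the block left 2 of 15 members in CSA and 2 in TAC over DMSO, 6 in CSA over TAC, 1 in VCS over CSA and 4 in VCS over TAC, where 11.4%, 13.1%, 15.9%, 6.29% and 7.88% of all genes passed, and 0 members in VCS over DMSO.

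Uncalled fold changes of members between groups changed sign in 173 of 1800 values, against 0 of 270 for number 3. Of those printed above, MT-CO2 in VCS over DMSO was −0.057 without the libraries numbered 3 and ran from −0.224 to 0.418 with 1 library left out. MT-ND4 in VCS over DMSO ran from −0.698 to 0.0488 and MT-RNR1 in TAC over DMSO from −0.253 to 0.0546. Some signs also changed with all 12 libraries kept. In VCS over DMSO, 5 of 15 members were below 0 in the fit by group, 8 with library totals and 8 with the replicate block. The cause of the sign changes was not tested. Every counted member had over 200 CPM in each library. How far the spread between libraries or the assignment of reads limits these results was not tested.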
